A study of Mus musculus with 14 samples.

Results

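Hemoglobin and erythroid genes were followed in sorted lung tumor cells. The 6 genes were those of the deposited table of 52550 genes whose Ensembl identifier maps to the symbols Hba-a1, Hba-a2, Hbb-bs, Hbb-bt, Alas2 and Slc4a1, a rule that uses names and no measured value, although the list was drawn up with earlier results of these data known. RNA-seq counts were available for 6 KPY-Ctrl tumors and 8 KPY-Setd2KO tumors. All mice carried Trp53 flox/flox and Rosa26 LSL-YFP on a mixed B6J/129S4vJae background, and all received, by endotracheal intubation, a lentivirus that delivers Cre, Cas9 and 1 guide. The guide was directed against the bacterial beta-galactosidase gene (sgBGal) in KPY-Ctrl and against Setd2, which encodes the enzyme that trimethylates lysine 36 of histone H3, in KPY-Setd2KO. Every cell that took up the virus could therefore lose p53 and gain YFP. According to the study's methods, tumors were dissected, digested and sorted for live YFP+ cells, and an antibody against the red-cell antigen Ter-119 is described only for a separate flow cytometry assay. The extraction protocol deposited with the samples instead speaks of cell lines and of other kits, a conflict that was not resolved. Age at collection is not given in the sources used here. The study had fewer mice than tumors and the mouse of each tumor is not given, so p-values that treat tumors as independent may be too small.

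Adult hemoglobin is a tetramer of alpha and beta globin chains, each of which holds a heme. In the mouse the adult alpha chains come from the neighboring genes Hba-a1 and Hba-a2, and in the C57BL/6 reference strain the adult beta chains come from Hbb-bs and Hbb-bt. Alas2 encodes the erythroid form of 5-aminolevulinate synthase, which makes the first committed intermediate of heme. Slc4a1 encodes band 3, the anion exchanger that anchors the red-cell membrane to its skeleton. Reticulocytes in blood retain globin mRNA after the nucleus is lost, while transcription factors such as Gata1 and Klf1 act in nucleated precursors of the marrow and spleen.

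The alpha globin genes lie on the plus strand of chromosome 11 in GRCm38, Hba-a1 (ENSMUSG00000069919.7) at chr11:32283511-32284465 and Hba-a2 (ENSMUSG00000069917.7) at chr11:32296489-32297298, with 12023 bases between them. The beta globin genes lie on the minus strand of chromosome 7, Hbb-bt (ENSMUSG00000073940.3) at chr7:103812524-103813996 and Hbb-bs (ENSMUSG00000052305.6) at chr7:103826534-103828096, with 12537 bases between them. Alas2 (ENSMUSG00000025270.13) is at chrX:150547375-150570638 on the plus strand and Slc4a1 (ENSMUSG00000006574.15) at chr11:102348824-102366203 on the minus strand. The reads were 75 bases long, and the paralogs of each pair are so alike that most reads cannot be given to one of them. The 426 coding bases of Hba-a1 and Hba-a2 differ by the single substitution C381T, and the 441 coding bases of Hbb-bs and Hbb-bt by C417T, counted from the first base of the start codon with the base of the first-named gene first. The coding stretches around these bases are printed because they hold the only coding letters that tell the paralogs apart, with the differing base in capitals, read 5′ to 3′ from the GENCODE transcripts.
Hba-a1: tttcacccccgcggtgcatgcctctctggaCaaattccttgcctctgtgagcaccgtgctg
Hba-a2: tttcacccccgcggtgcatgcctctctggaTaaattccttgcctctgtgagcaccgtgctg
Hbb-bs: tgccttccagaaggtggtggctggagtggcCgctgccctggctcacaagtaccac
Hbb-bt: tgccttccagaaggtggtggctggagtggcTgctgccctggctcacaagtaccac
Over the longest annotated transcripts, 389 windows of 75 bases were shared by the alpha paralogs, which is 62.2% of those in Hba-a1 and 81.0% of those in Hba-a2. The beta paralogs shared 356 windows, 64.3% of those in Hbb-bs and 56.6% of those in Hbb-bt. Values of a single paralog therefore depend on how the quantifier divided shared reads, and each pair is also given summed.

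Because the members moved together across tumors, as shown further on, the bases before their start sites were searched for the letters of 4 boxes known from erythroid promoters. The Gata1 motif was spelled GATA, the letters to which that family of factors binds. The Klf1 motif was spelled CACCC, after the box at which Klf1 acts on the beta globin gene. The promoter box known as the CAAT box was spelled CCAAT, in its usual form. For the TATA-type box the spelling was ATATAA, with its leading letter included. Both strands were read within 150 bases before the RefSeq start (GRCm38.p6), and no match shared letters with a match to another motif. RefSeq windows were found for 5 of the 6 genes, Slc4a1 apart. The stretches for Hba-a2, at chr11:32296342-32296488 on the plus strand, and Hbb-bs, at chr7:103827929-103828011 on the minus strand, show the arrangement in the most abundant gene of each pair, with matches in capitals and annotated exon bases left out, which removes the Klf1 motif of the Hbb-bs window.
Hba-a2: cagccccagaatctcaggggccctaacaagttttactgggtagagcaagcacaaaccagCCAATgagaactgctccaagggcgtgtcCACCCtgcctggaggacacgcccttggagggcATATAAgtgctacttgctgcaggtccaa
Hbb-bs: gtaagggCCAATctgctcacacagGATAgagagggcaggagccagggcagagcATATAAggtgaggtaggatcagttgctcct
All 4 globin windows held the CAAT box, the Klf1 motif and the TATA-type box. The Gata1 motif was matched in the windows of Hbb-bs, Hbb-bt and Alas2, and Alas2 also held the Klf1 motif on the opposite strand but neither the CAAT box nor the TATA-type box. Among 32851 promoter windows of the same length, 35.7% held the Gata1 motif, 37.4% the Klf1 motif, 24.5% the CAAT box and 5.35% the TATA-type box. The windows of Hba-a1 and Hba-a2 were identical over 147 bases, and those of Hbb-bs and Hbb-bt over 71.1% of 149 bases. Matches were counted over whole windows, and in all 5 genes the window overlaps the annotated gene, fully in Hba-a1 and Hbb-bs. These matches describe letters only.

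The libraries held 27866266 to 51828846 counts in KPY-Ctrl and 20072236 to 40604404 in KPY-Setd2KO, and the shallowest were KPY-Setd2KO replicates 7 and 8. Setd2, the targeted gene, was at 41.8 to 63.5 CPM (counts scaled to library size with TMM factors) in KPY-Ctrl and 17.9 to 47.3 in KPY-Setd2KO, and 6 of 8 knockout tumors lay below every control tumor. Its log2 fold change was -0.74 (SE 0.224) with an adjusted p of 0.175 by edgeR's quasi-likelihood test. By DESeq2 the adjusted p was 0.0675, and a two-sided exact permutation test on mean log2 CPM gave p = 0.00466. Among alveolar type 2 and epithelial markers, the surfactant gene Sftpc held the highest level per length. Its mean was 35131 TPM (counts per exonic base, scaled to a common sum in each tumor). The sum of these markers was 14542 to 69399 CPM in KPY-Ctrl and 6415 to 61382 CPM in KPY-Setd2KO. Macrophage markers varied far more, their sum ranging from 113 to 4733 CPM among control tumors and from 96.8 to 7628 CPM among knockout tumors.

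Globin transcripts were found in every tumor and took a small share of each library. Summed over the 4 globin genes, the share of all counts in KPY-Ctrl had a lowest value of 0.00762% (exact Clopper-Pearson 95% interval 0.00738% to 0.00786%), a median of 0.0127% and a highest value of 0.0299% (0.0293% to 0.0305%). In KPY-Setd2KO the lowest share was 0.00590% (0.00564% to 0.00618%), the median 0.0247% and the highest 0.0794% (0.0783% to 0.0805%). The groups overlapped, and the range within KPY-Setd2KO alone spanned 13.4-fold, against 3.93-fold within KPY-Ctrl. Such intervals cover counting error only, and they were narrow beside the distance between tumors. In bulk RNA, fewer cells of a type and less RNA per cell cannot be told apart.

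**Figure D1:**
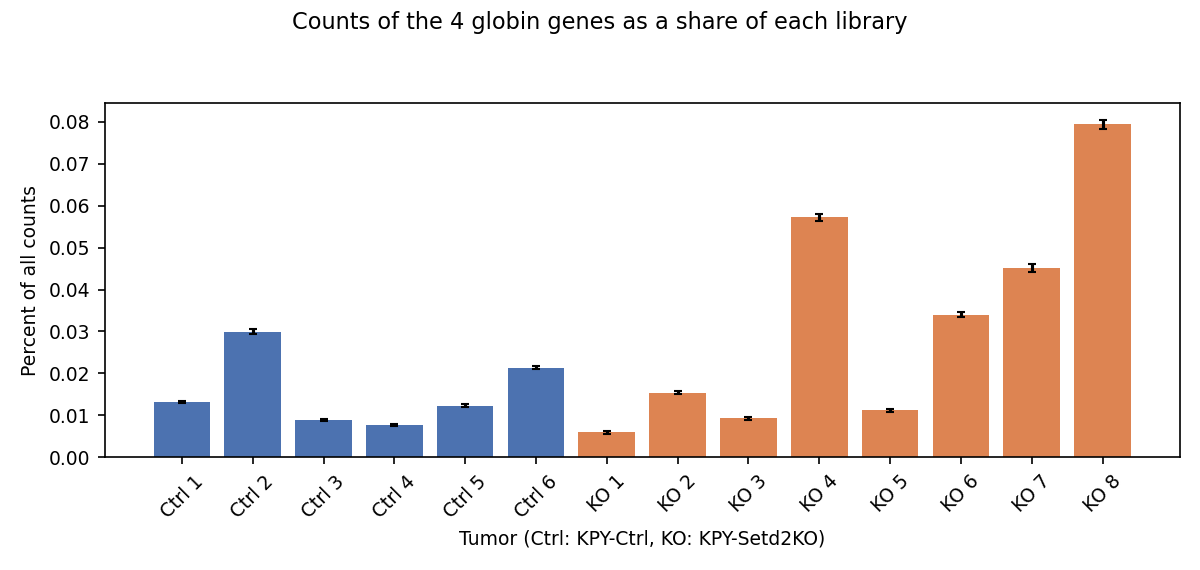
Counts of Hba-a1, Hba-a2, Hbb-bs and Hbb-bt as a percent of all counts (y axis) in each tumor (x axis), with exact 95% intervals of counting error. KPY-Ctrl tumors (blue) lay between 0.00762% and 0.0299%, and KPY-Setd2KO tumors (orange) between 0.00590% and 0.0794%.

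Hba-a2 was the most abundant member. Per exonic length, its mean over the 14 tumors was 293 TPM, followed by Hbb-bs at 206, Hba-a1 at 141, Hbb-bt at 21.7, Alas2 at 2.00 and Slc4a1 at 0.0364. This order held in 14 of 14 tumors for each neighboring pair, although across tumors the ranges of Hba-a2, Hbb-bs and Hba-a1 overlapped. The ratio per length of Hba-a2 to Hbb-bs ranged from 1.24 to 1.78, and that of Hbb-bs to Hba-a1 from 1.07 to 2.30. The step to Hbb-bt was wider, with Hba-a1 between 4.41 and 13.3 times its level, and Hbb-bt was at a median of 10.5 times the level of Alas2. By raw count, Hba-a2 stood between place 394 and place 5744 of all genes depending on the tumor.

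Alpha globin Hba-a1, on the CPM scale, had a lowest value of 17.1, a median of 29.1 and a highest value of 65.8 in KPY-Ctrl, and 11.7, 61.1 and 205 in KPY-Setd2KO. The control mean was 36.2 ± 20.8 CPM (SD, n = 6), and the knockout mean was 80.4 ± 70.8 CPM (SD, n = 8). KPY-Setd2KO replicates 4, 6, 7 and 8 lay above every control tumor, replicate 1 lay below all of them, and the groups overlapped. The log2 fold change, KPY-Setd2KO against KPY-Ctrl, was 1.15 (SE 0.634, edgeR's quasi-likelihood test, adjusted p = 0.459), and the difference in mean log2 CPM was 0.71 (two-sided exact permutation test over all arrangements of the tumors, p = 0.327).

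Alpha globin Hba-a2 ran from 24.2 CPM over a median of 47.9 to 131 in KPY-Ctrl, and from 30.6 over 102 to 300.1 in KPY-Setd2KO. The highest 3 knockout tumors, replicates 4, 7 and 8, exceeded every control tumor, while the other 5 fell within the control range. Its mean was 61.3 ± 40.8 CPM (SD, n = 6) against 132 ± 104 (SD, n = 8), a log2 fold change of 1.11 (SE 0.571, edgeR, adjusted p = 0.418). The exact permutation p was 0.161.

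Beta globin Hbb-bs ran from 18.7 CPM over 42.9 to 114 in KPY-Ctrl and from 23.7 over 75.03 to 238 in KPY-Setd2KO. The same 3 knockout tumors stood above the controls, led by replicate 4 rather than replicate 8, and the groups overlapped. The means were 51.9 ± 35.0 CPM (SD, n = 6) and 103 ± 83.8 (SD, n = 8), with a log2 fold change of 0.99 (SE 0.584, edgeR, adjusted p = 0.494) and an exact permutation p of 0.238.

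Hbb-bt, the less abundant beta globin, had the largest fold change of the members. It ran from 1.54 CPM over 3.66 to 8.13 in KPY-Ctrl and from 2.55 over 10.2 to 29.3 in KPY-Setd2KO. Knockout replicates 4, 6, 7 and 8 lay above every control tumor and the other 4 within the control range. The mean was 4.10 ± 2.52 CPM (SD, n = 6) against 13.7 ± 11.2 (SD, n = 8), a 3.34-fold ratio of means. Its log2 fold change of 1.74 (SE 0.623) had p = 0.0141 unadjusted and 0.240 after Benjamini-Hochberg adjustment over all genes tested by edgeR, and the exact permutation p was 0.0539.

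Alas2, the heme synthesis enzyme of red-cell precursors, ran from 0.827 CPM over 1.16 to 3.34 in KPY-Ctrl and from 0.370 over 2.61 to 8.01 in KPY-Setd2KO. The tumors high in globins were also high here, and replicate 1 of KPY-Setd2KO, with 10 counts, was the lowest of all. The mean was 1.54 ± 0.968 CPM (SD, n = 6) against 3.25 ± 2.69 (SD, n = 8). The log2 fold change was 1.07 (SE 0.608, edgeR, adjusted p = 0.473), and the exact permutation p was 0.277. Slc4a1 had at most 7 counts in a KPY-Ctrl tumor and at most 12 in a KPY-Setd2KO tumor, with 3 tumors of each genotype at 0, one of them KPY-Setd2KO replicate 7, whose Hbb-bs level was 139 CPM. A count of 0 allows up to 3 counts, or 0.0579 to 0.149 CPM across these libraries. The band 3 gene did not pass the filter on low counts and no fold is given.

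**Figure D2:**
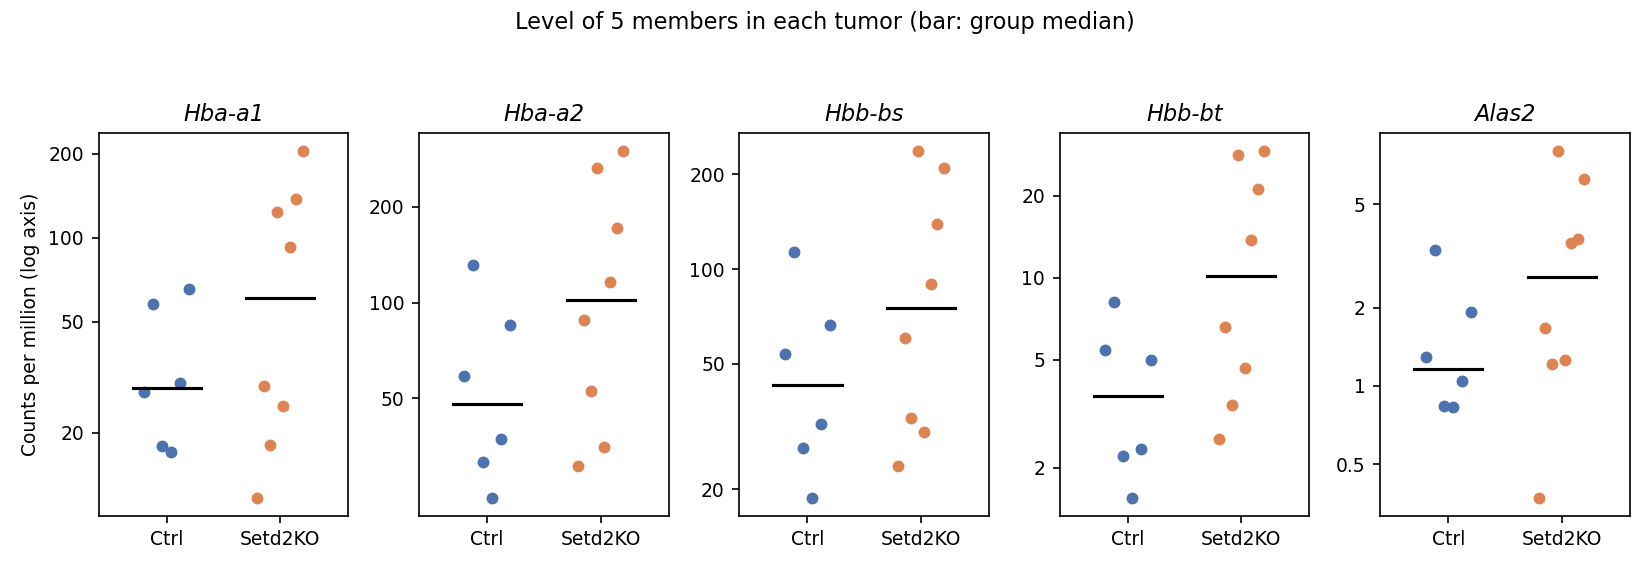
CPM (log axis, a separate scale for each gene) of Hba-a1, Hba-a2, Hbb-bs, Hbb-bt and Alas2 in 6 KPY-Ctrl (blue) and 8 KPY-Setd2KO (orange) tumors, with the group median as a bar. In each of the 5 panels the knockout tumors spread more widely and overlap the control tumors.

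Of the 6 members, 5 were tested and 0 were called at an adjusted p under 0.05 with an absolute log2 fold change over 1. The same thresholds called 0 of 16836 genes, or 0% of the background, in edgeR's quasi-likelihood test. At an unadjusted p under 0.05, 1 member (Hbb-bt) passed, beside 2311 genes or 13.7% of those tested. With DESeq2, the study's tool, 0 members passed both thresholds beside 462 of 19231 genes, or 2.4%, and the adjusted p of Hbb-bt was 0.0635. With the mean of the macrophage markers as a covariate in edgeR, 0 members passed beside 119 genes or 0.707%, and the adjusted p of Hbb-bt was 0.118. Over 22 alternatives the adjusted p of Hbb-bt ranged from 0.0635 to 0.600. The median log2 fold change of the 5 tested members was 1.11, and over all genes tested it was 0.03. The pairs as sums behaved alike, with log2 fold changes of 1.13 (SE 0.584, edgeR, adjusted p = 0.422) for Hba-a1 plus Hba-a2 and 1.06 (SE 0.587, edgeR, adjusted p = 0.462) for Hbb-bs plus Hbb-bt.

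The spread between tumors of one genotype was wide for these genes. The pooled SD of log2 CPM within genotype was between 1.14 (Hba-a2) and 1.30 (Hba-a1) for the 5 tested members, against a median of 0.67 over all genes tested. Between 74.4% and 81.4% of the genes tested had a smaller SD. Leaving out single tumors moved the fold changes accordingly. Without KPY-Setd2KO replicate 4 the log2 fold change of Hbb-bs was 0.69, and without KPY-Ctrl replicate 2 it was 1.39.

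Across tumors, the levels of the members were high or low together. Over the 10 pairs among the 5 tested members, Pearson's r of genotype-centred log2 CPM across the 14 tumors ranged from 0.929 to 0.992. Reads shared by paralogs link Hba-a1 with Hba-a2 and Hbb-bs with Hbb-bt. Windows shared between the alpha genes, the beta genes and Alas2 were not counted. Hbb-bs followed Hba-a2 with r = 0.992 and Spearman's rho = 0.991 (permutation within genotype, adjusted p = 4e-05 and 6e-05 over 12 relations). With Alas2, Hbb-bs had r = 0.951 and rho = 0.969, with Hba-a1 0.933 and 0.925, and with Hbb-bt 0.983 and 0.965. Dropping the 2 tumors most distant from the median level of the gene compared, r was 0.991 for Hba-a2, 0.966 for Alas2, 0.906 for Hba-a1 and 0.977 for Hbb-bt. Within each genotype, r with these 4 genes was between 0.889 and 0.995. For Slc4a1 r was 0.727, a value that rests on at most 12 counts per tumor.

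**Figure D3:**
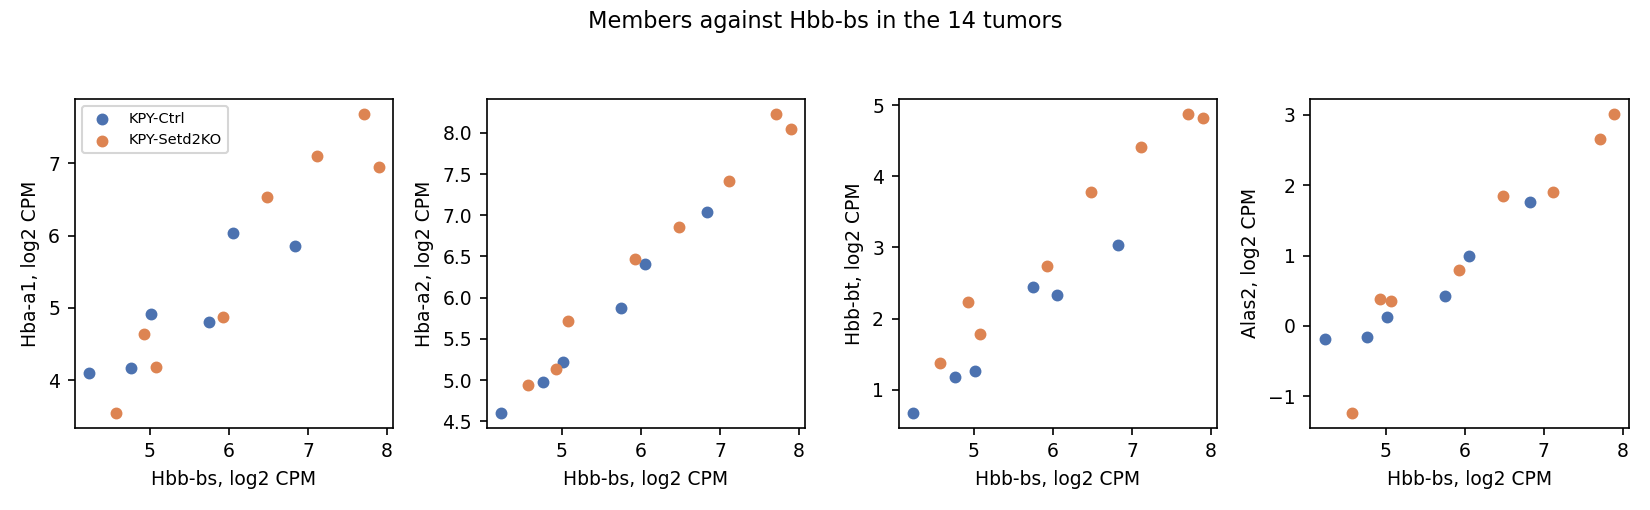
Log2 CPM of Hba-a1, Hba-a2, Hbb-bt and Alas2 (y axes) against that of Hbb-bs (x axes), 1 point for each of 6 KPY-Ctrl (blue) and 8 KPY-Setd2KO (orange) tumors. The points rise together in each panel, with r between 0.933 and 0.992 after centring on genotype, and in the Hbb-bt panel the knockout tumors sit above control tumors of like Hbb-bs level.

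Among the 16836 genes tested, the 4 whose rank pattern was most like that of Hbb-bs were the other tested members, in the order Hba-a2, Alas2, Hbb-bt and Hba-a1. Outside the list, the next 10 genes had rho between 0.807 and 0.890 over the 14 tumors, a description without a test. They were Gm47022, Tbx3 (a T-box transcription factor), Ramp2 (a partner of the adrenomedullin receptor), Med9 (a Mediator subunit), Gm10080, AA474408, Runx3 (a runt-domain transcription factor), Gm13645, Ssbp4 and Ank2 (ankyrin-B). Tbx3 and Gm47022 shared the highest rho of 0.890, and their counts went down to 4 and 6 in a tumor. None of these 10 was in the red-cell gene lists.

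The ratio of alpha to beta globin per length varied less between tumors than the total level did. It was 1.89 ± 0.257 (SD, n = 6) in KPY-Ctrl, with a range of 1.57 to 2.19, and 1.93 ± 0.217 (SD, n = 8) in KPY-Setd2KO, with a range of 1.57 to 2.22. The genotypes overlapped almost fully in this ratio. Alas2 per length was 0.263% to 0.405% of the globin sum in KPY-Ctrl and 0.160% to 0.400% in KPY-Setd2KO.

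Between tumors, the Hbb-bt share of beta globin counts spanned 1.37-fold in KPY-Ctrl and 1.45-fold in KPY-Setd2KO. The alpha to beta ratio spanned 1.40-fold and 1.42-fold. Over all 14 tumors, the Hbb-bt share spanned 1.99-fold and the ratio 1.42-fold. In the alpha pair, the Hba-a1 share spanned 1.80-fold over all tumors and the Hba-a2 share 1.36-fold. Hbb-bt made up between 6.67% and 9.16% of the beta globin counts in KPY-Ctrl, with a mean of 7.46% ± 0.920 (SD, n = 6), and between 9.17% and 13.3% in KPY-Setd2KO, with a mean of 11.4% ± 1.76 (SD, n = 8). The highest control share, 9.16% in KPY-Ctrl replicate 1 (exact 95% interval 8.06% to 10.4%), nearly equalled the lowest knockout share. That was 9.17% in KPY-Setd2KO replicate 3 (7.55% to 11.01%), and each value lay inside the interval of the other. KPY-Setd2KO replicates 5 to 8 lay between 12.3% and 13.3%, and replicates 1 to 4 between 9.17% and 10.6%. No test was planned for this share and none was run, and how often shares of other gene pairs separate the genotypes was not examined. Other mouse strains, including the 129 group, carry beta globin haplotypes that differ from that of C57BL/6, and the haplotype of each mouse was not analysed here.

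Hba-a1 made up 30.7% to 44.9% of the alpha globin counts in KPY-Ctrl and 24.9% to 44.5% in KPY-Setd2KO. This share was low, from 24.9% to 32.2%, in KPY-Ctrl replicates 1 and 2 and KPY-Setd2KO replicates 1 to 4, and from 36.3% to 44.9% in the other 8 tumors. These 6 tumors were also the 6 with the most macrophage-marker RNA, with a mean log2 CPM of the list between 6.51 and 8.07 against 2.61 to 5.77 in the rest, and the part of these markers in the Hba-a1 share was not tested.

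**Figure D4:**
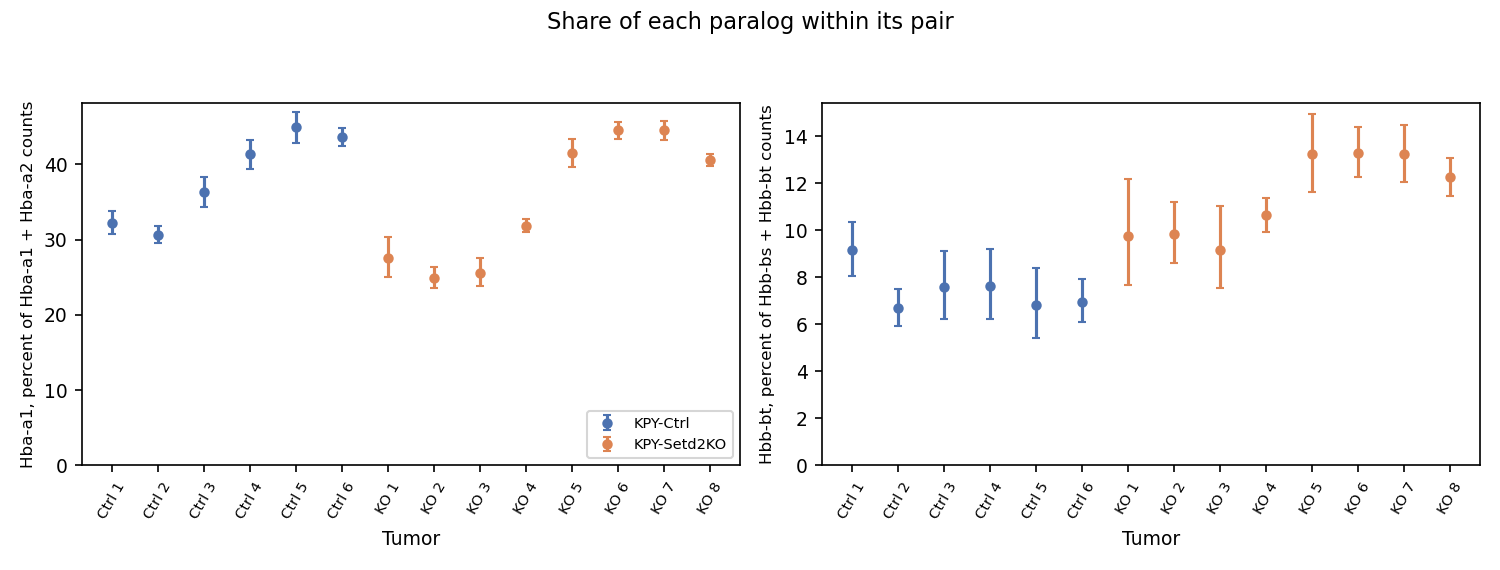
Hba-a1 as a percent of Hba-a1 plus Hba-a2 counts (left) and Hbb-bt as a percent of Hbb-bs plus Hbb-bt counts (right) in each KPY-Ctrl (blue) and KPY-Setd2KO (orange) tumor, with exact 95% intervals of counting error. The Hbb-bt share reaches 9.16% in KPY-Ctrl and starts at 9.17% in KPY-Setd2KO, whereas the Hba-a1 share is low in 6 tumors of both genotypes.

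Of the other genes tied to the red-cell lineage, some were at or near 0 counts and others passed the filter on low counts. None of those tested was called. Here and for the lists that follow, calls are those of edgeR at both thresholds unless another tool is named. In the 6 lists of other globins, heme synthesis, membrane, cytoplasm and iron, transcription factors, and heme uptake and breakdown, DESeq2 and the covariate fit called 0 as well. At an unadjusted p under 0.05 by edgeR, 3 of 6 tested membrane genes passed, 1 higher and 2 lower in KPY-Setd2KO. Of the heme synthesis genes 2 of 8 passed and of the cytoplasmic or iron genes 1 of 10, all lower. The other 3 lists had 0, and the share over all genes tested was 13.7%. Of 9 other globins, the embryonic genes Hbb-y and Hbb-bh2 had 0 counts in all 14 tumors, and Hba-x, Hbb-bh1 and Hbq1a had at most 2 in any tumor. Only Cygb, which encodes cytoglobin, was tested, with a log2 fold change of 0.70 (SE 0.992, edgeR, adjusted p = 0.830). The erythroid transcription factor Gata1 had at most 2 counts in any tumor, Tal1 at most 9 and Gfi1b at most 6, and Klf1 at most 25. Of the 9 factors 4 were tested and 0 called, with a median log2 fold change of -0.01. The one with the highest level per length was Lmo2, which spanned 0.516 to 32.2 CPM among controls and 0.742 to 57.1 among knockouts. Zfpm1, the Gata1 partner FOG1, had the smallest p (log2 fold change -0.42, edgeR, adjusted p = 0.594).

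Among 15 red-cell membrane genes, 6 were tested and 0 called, with a median log2 fold change of -0.54. Rhag and Kel, blood group proteins, had at most 3 counts in any tumor. The skeleton protein gene Epb41, which other cells also use, had the highest level per length. Ank1, the erythroid ankyrin gene, had the smallest p, with a log2 fold change of -1.71 (SE 0.552, edgeR, adjusted p = 0.202). Of the 15 cytoplasmic and iron genes in the table, 10 were tested and 0 called, with a median of -0.11. Car1, a carbonic anhydrase abundant in red cells, had 0 counts in all 14 tumors. Prdx2, a peroxiredoxin that many cells make, had the highest level per length. The transferrin receptor gene Tfrc had the smallest p (log2 fold change -0.75, SE 0.265, edgeR, adjusted p = 0.237).

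The other genes of heme synthesis had fold changes near 0 or below it. All 8 were tested and 0 were called, 7 had a fold change below 0, and the median was -0.17. Alas1, the housekeeping form of the enzyme, was at 124 to 367 CPM in KPY-Ctrl and 76.8 to 380.3 in KPY-Setd2KO, with a log2 fold change of -0.12 (SE 0.420, edgeR, adjusted p = 0.941). Of 14 genes of heme uptake and breakdown 13 were tested and 0 called, with a median of 0.24. The ferritin heavy chain gene Fth1 had the highest level per length, and the iron exporter gene Slc40a1 the smallest p (log2 fold change -0.92, SE 0.484, edgeR, adjusted p = 0.431).

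Markers of other cells that blood or vessels could bring were read beside the globins. Hbb-bs moved with the mean of the 10 neutrophil markers across tumors, with r = 0.641 (permutation within genotype, adjusted p = 0.0107) and rho = 0.749 (adjusted p = 0.00288). Dropping the 2 tumors most distant in the marker mean, r was 0.812, and it was 0.764 within KPY-Ctrl and 0.762 within KPY-Setd2KO. Of these markers 7 were tested and 0 called by edgeR, with 3 at an unadjusted p under 0.05, 6 had a fold change above 0 and the median was 1.21. Their sum was 6.71 to 153 CPM in KPY-Ctrl and 31.3 to 154 in KPY-Setd2KO, Mmp8 had the highest level per length, and Ly6g, which defines mature neutrophils, had at most 2 counts. Retnlg, the resistin-like gene of neutrophils, had the smallest p (log2 fold change 2.46, SE 0.762, edgeR, adjusted p = 0.188), and it was called by DESeq2 (adjusted p = 0.0153) and by edgeR with the macrophage covariate (adjusted p = 0.0484). The part of neutrophil RNA in the globin values was not tested.

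Endothelial markers gave r = 0.638 (adjusted p = 0.0307 by permutation) but rho = 0.446 (adjusted p = 0.174), and r = 0.538 without the 2 farthest tumors. All 10 were tested and 0 called, with a median log2 fold change of 0.98 and sums of 22.4 to 149.9 CPM in KPY-Ctrl and 28.0 to 132 in KPY-Setd2KO. Vwf had the highest level per length and Pecam1, which encodes CD31, the smallest p (log2 fold change 0.93, SE 0.331, edgeR, adjusted p = 0.237). Their part in the globin values was not tested. Macrophage markers, with r = 0.289 over all tumors (adjusted p = 0.398 by permutation) and rho = 0.398 (adjusted p = 0.248), gave r = 0.912 within KPY-Ctrl and -0.03 within KPY-Setd2KO, a difference that was not tested. All 10 were tested and 0 called, with a median log2 fold change of 0.35, led in level by Cd68 and in p by Marco (log2 fold change 1.10, edgeR, adjusted p = 0.785).

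Each list mean behind r took in all markers of the list, also those that did not pass the filter on low counts. For platelet markers r with Hbb-bs was 0.135 (adjusted p = 0.672 by permutation) and rho 0.0857 (adjusted p = 0.786). Of the 10, 4 were tested and 0 called by edgeR, with 1 at an unadjusted p under 0.05. Pf4, encoding platelet factor 4, had both the highest level per length and the smallest p, with a log2 fold change of -1.64 (SE 0.404, edgeR, adjusted p = 0.129), and it was called by DESeq2 (adjusted p = 0.00806). Ppbp, which encodes another chemokine of platelet granules and was named after its values were seen, had a log2 fold change of 1.93 (SE 0.967, edgeR, adjusted p = 0.403). The median over the list was 0.19, and the sum was 39.0 to 79.9 CPM in KPY-Ctrl and 5.67 to 44.8 in KPY-Setd2KO. For lymphocyte markers r was 0.506 (adjusted p = 0.0982) and rho 0.565 (adjusted p = 0.0631). For fibroblast markers r was 0.408 (adjusted p = 0.114) and rho 0.270 (adjusted p = 0.363). For alveolar type 2 and epithelial markers r was -0.149 (adjusted p = 0.672) and rho -0.108 (adjusted p = 0.786), all by permutation. Within KPY-Ctrl, r with the epithelial markers was -0.803, and within KPY-Setd2KO 0.137. These 3 lists had medians of 0.15 over 3 tested lymphocyte genes, -0.12 over 9 tested fibroblast genes and -0.14 over 10 tested epithelial genes, with 0 called. The genes with the smallest p were Cd3d (adjusted p = 0.333), Dcn (0.642) and Abca3 (0.311) by edgeR, and those with the highest level per length Cd79b, Fn1 and Sftpc.

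**Figure D5:**
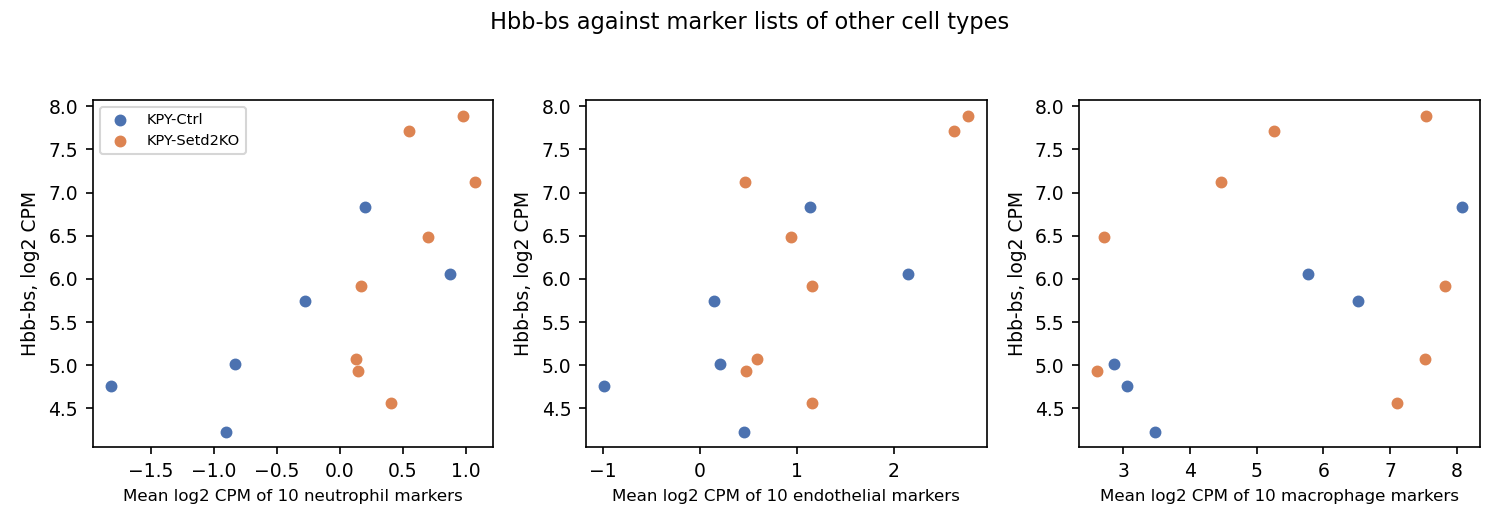
Log2 CPM of Hbb-bs (y axes) against the mean log2 CPM of 10 neutrophil, 10 endothelial and 10 macrophage markers (x axes), 1 point per KPY-Ctrl (blue) or KPY-Setd2KO (orange) tumor. For neutrophil markers r was 0.764 within KPY-Ctrl and 0.762 within KPY-Setd2KO, and for macrophage markers 0.912 and -0.03.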

How the data were processed

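The RNA-seq counts of 6 KPY-Ctrl and 8 KPY-Setd2KO tumors were analysed. The authors deposited whole-number estimated counts per Ensembl gene, made with Salmon 0.8.2 from single-end reads against GRCm38.p5 (submitters' processing notes and the study's methods), without normalization. Of 52550 rows, 52403 were matched to a symbol and length in GENCODE M21, and the 8 largest values carry 3 digits only. Salmon divides reads between near-identical transcripts by estimation, which bears on both globin pairs. One gene of the lists, Ahsp, was not analysed here. An allele that all mice carried and some genes that the naming rule selects are not reported here.

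Genotypes were compared with edgeR 4.0.16 in R 4.3.3 (TMM, filterByExpr, robust quasi-likelihood test, Benjamini-Hochberg adjustment over all genes tested), as planned on genotype only, and with DESeq2 1.42.0 and other settings as alternatives. The procedure was checked on simulated counts. Log2 CPM used a prior count of 2. Levels per length are counts per base of the longest transcript, scaled to a common sum (TPM). Relations used 100000 resamples within genotype, for which 1e-05 is the smallest p possible. Members and lists were chosen with earlier results of these data known. Named genes were the members, Setd2, the highest and the smallest-p gene of each list, the 10 genes most like Hbb-bs, and lineage markers near 0. For the globin share in the 14 tumors, counting error was small beside the spread between tumors, while low counts limit Slc4a1. No 2 libraries of a genotype agreed within sampling noise.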

Additional observations from a re-analysis of the deposited data

Results flagged for a closer look

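No tumor stood apart from the others of its genotype in the levels or proportions of these genes. Dixon's test, at its 95% critical value, was applied to 22 sets of values (6 gene levels, the globin share of all counts, both paralog shares, the alpha to beta ratio and the Alas2 share, each in 2 genotypes) and found 0, where chance sets apart about 1 in 20.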

How the results depend on the processing

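The 0 members called and the positive sign of all 5 tested members held under 22 alternatives: another or no scaling, library sizes without the members, other filters, DESeq2, the macrophage covariate, the replicate block and each tumor left out. The median log2 fold change of the members lay between 0.82 (without KPY-Setd2KO replicate 8) and 1.46 (without KPY-Ctrl replicate 2) when 1 tumor was left out. The count of genes called moved from 0 to 119 with the macrophage covariate and to 462 with DESeq2, and from 0 to 1 over the fits without 1 tumor, the 1 without KPY-Ctrl replicate 6, and the cause was not tested. Without that tumor 0 members were called. Summing the paralogs and a prior count of 0.5 changed no sign. With library size only, the median of all genes moved to -0.11 and that of the members to 1.06.

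The replicate number as a block gave the members a median log2 fold change of 0.33, from 0.06 for Hba-a1 to 0.88 for Hbb-bt, with 0 genes called, and leaves KPY-Setd2KO replicates 7 and 8 without a partner. Same-numbered tumors had correlations of their deviations from -0.664 to 0.657, and they were taken as names, not as pairs. Counts as low as 0 to 12 limit Slc4a1, and shared reads limit each single paralog.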
